A study of Mus musculus with 4 samples.

Results

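The genes described here are the nuclear genes of the mitochondrial respiratory chain and ATP synthase in cells of the mouse heart. They were chosen by symbol alone, as every listed gene whose symbol begins with Nduf followed by a, b, c, s or v and a digit, with Uqcr, with Cox followed by a digit of 4 to 8, or with Atp5, together with Sdha, Sdhb, Sdhc and Sdhd. The rule found 85 of the 32287 features in the count matrices: 38 of complex I, 4 of complex II, 8 of complex III, 18 of complex IV and 17 of complex V. Complexes were assigned by the start of the symbol alone, so Ndufa4 and Ndufa4l2 are counted with complex I. The rule itself uses no measured value.

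Complexes I to IV pass electrons from NADH and succinate to oxygen, complexes I, III and IV pump protons across the inner mitochondrial membrane as they do so, and complex V, ATP synthase, uses the resulting gradient to make ATP. A few core subunits of complexes I, III, IV and V are encoded by the mitochondrial genome, and all other subunits, including every one of the 85 genes, are encoded in the nucleus and imported. Beating cardiomyocytes hold very many mitochondria, and the cells around them, which are the cells measured here, hold fewer and can draw more of their energy from glycolysis. Several subunits exist as paired forms, one used in most cells and the other restricted to muscle or to cells sensing low oxygen.

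RNA was measured by droplet-based single-cell sequencing of the ends of transcripts (10x Genomics 3′ chemistry) in interstitial cells of the heart, sorted as live nucleated cells from digested tissue. All 4 libraries came from mice that carried Tcf21-MerCreMer, a tamoxifen-activated Cre recombinase tied to Tcf21, a transcription factor gene of cardiac fibroblasts, and all mice received tamoxifen. The deletion-labelled infarcted library came from Tcf21-MerCreMer:flox hearts 3 days after myocardial infarction, and the control infarcted library from Tcf21-MerCreMer hearts at the same time. The deletion-labelled uninjured library came from Tcf21-MerCreMer:flox hearts without infarction, and the control uninjured library from Tcf21-MerCreMer hearts without infarction. The study asked what loss of TCF21 in fibroblasts does in the resting and the injured heart. Every group is 1 library, so no spread between mice is known, no comparison was tested, and the intervals in square brackets are 95% intervals that cover counting error only. How many hearts entered a library, the age of the mice, and which part of Tcf21 is floxed were not given in the sources used here.

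The promoters of these genes carry recurring short motifs, and the set below is shown because its members differ in motif content. Of the set, Cox6a1, Cox5a and Ndufa3 come back in the results. RefSeq promoters (GRCm38.p6, 250 bases before to 50 after the start) were at hand for 69 of the 85 genes. On either strand, the NRF1 form GCGCANGCG was in 19 of the 69 (27.5%, against 6.47% of the 27025 genes with a listed promoter), the ETS form CCGGAAG in 16 (23.2%, against 9.12%), and the YY1 form ATGGCGG in 9 (13%, against 4.19%). At least 1 of the 3 was in 36 promoters (52.2%, against 17.2% of all listed genes), and none held all 3. No form contains another, and a match describes letters, not binding. In the sequences below, written 5′ to 3′ on the gene's own strand, capitals mark these matches.
Cox6a1 (chr5:115348909-115349208, minus strand): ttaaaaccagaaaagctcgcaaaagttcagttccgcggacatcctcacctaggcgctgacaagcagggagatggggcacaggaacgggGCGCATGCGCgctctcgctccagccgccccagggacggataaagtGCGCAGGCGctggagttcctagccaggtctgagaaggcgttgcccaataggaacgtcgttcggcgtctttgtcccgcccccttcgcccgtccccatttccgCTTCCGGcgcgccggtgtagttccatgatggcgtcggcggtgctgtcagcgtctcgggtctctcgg
Atp5l (chr9:44920693-44920992, minus strand): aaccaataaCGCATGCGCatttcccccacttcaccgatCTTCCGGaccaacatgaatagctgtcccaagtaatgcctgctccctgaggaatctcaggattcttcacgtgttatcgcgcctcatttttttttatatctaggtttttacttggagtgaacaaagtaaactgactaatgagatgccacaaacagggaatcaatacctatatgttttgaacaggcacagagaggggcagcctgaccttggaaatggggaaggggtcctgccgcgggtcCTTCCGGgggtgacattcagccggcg
Cox5a (chr9:57520982-57521281, plus strand): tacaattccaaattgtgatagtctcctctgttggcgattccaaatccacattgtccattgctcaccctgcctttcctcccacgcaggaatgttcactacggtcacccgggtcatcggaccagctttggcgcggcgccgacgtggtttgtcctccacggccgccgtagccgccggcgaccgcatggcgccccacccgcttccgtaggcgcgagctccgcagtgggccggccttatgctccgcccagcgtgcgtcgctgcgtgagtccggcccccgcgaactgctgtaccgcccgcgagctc
Ndufa3 (chr7:3617123-3617422, plus strand): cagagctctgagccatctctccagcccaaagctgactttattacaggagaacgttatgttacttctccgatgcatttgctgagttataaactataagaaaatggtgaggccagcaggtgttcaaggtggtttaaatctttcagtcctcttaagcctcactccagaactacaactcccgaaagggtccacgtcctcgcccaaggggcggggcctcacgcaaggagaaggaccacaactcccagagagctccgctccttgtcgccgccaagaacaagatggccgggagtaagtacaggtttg
Cox6a1, the form of complex IV subunit 6A used in most cells, held 3 NRF1 matches, a pair of which overlap on opposite strands, and 1 ETS match, and Atp5l, subunit g of ATP synthase, held 1 NRF1 match and 2 ETS matches. Cox5a, a complex IV subunit with the largest infarction ratio in fibroblasts, and Ndufa3, a small accessory subunit of complex I that was the lowest gene between the infarcted libraries in fibroblasts, held none of the 3 in this window.

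The libraries held 10873 barcodes and 127757911 UMIs (deletion-labelled infarcted), 10203 and 129704045 (control infarcted), 11541 and 88509231 (deletion-labelled uninjured), and 9149 and 55710468 (control uninjured). After filtering and removal of predicted doublets, 8304 to 10175 cells were kept per library, and pairs of libraries shared 12 to 31 cell barcodes. Cells were clustered without the 85 genes and without mitochondrially encoded genes, and classes were named from marker genes. Of these, 7 are described here. A glial class was too small, and a cardiomyocyte-marked cluster (136 cells of the deletion-labelled and 86 of the control uninjured library) also held endothelial markers, in a median of 83.5% of its cells, and was not compared. In fibroblasts the 10 fibroblast markers were found in 53.3% to 99.0% of cells (median over markers 95.5%). Tcf21 was higher, not lower, in fibroblasts of the libraries labelled deletion: 32.0 UMIs per 1000000 UMIs of the class (CPM) in the deletion-labelled infarcted library against 21.5 in the control infarcted library, and 147 in the deletion-labelled uninjured library against 95.6 in the control uninjured library. Reads from the 3′ end do not check a floxed part elsewhere in the gene, so the genotypes stand here as labelled.

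The 85 genes took up between 1.11% and 3.19% of the UMIs of a class, and among the 7 classes mural cells, the pericytes and smooth muscle cells of vessel walls, had the highest share in each library. In mural cells the share was 2.84% in the deletion-labelled infarcted library, 2.53% in the control infarcted library, 3.19% in the deletion-labelled uninjured library and 1.92% in the control uninjured library. In fibroblasts the shares were 1.96%, 2.07%, 1.64% and 1.28% in the same order of libraries. Neutrophils, short-lived cells known to rely on glycolysis, had 1.49% in the deletion-labelled infarcted library, 1.65% in the control infarcted library and 1.11% in the deletion-labelled uninjured library, with too few cells in the control uninjured library (34). The cardiomyocyte-marked cluster had 2.80% in the deletion-labelled uninjured library and 2.06% in the control uninjured library, the second of which is above mural cells there. The control uninjured library had the lowest share in each of the 6 classes compared across all 4 libraries.

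**Figure D1:**
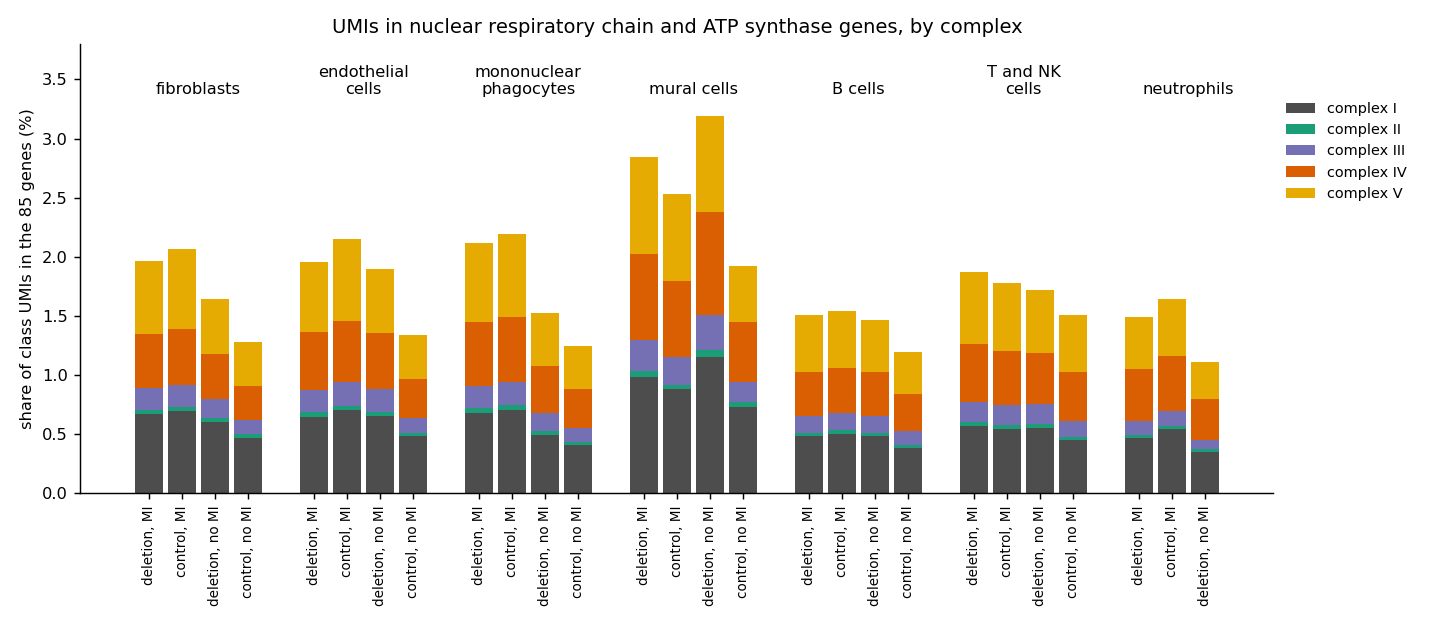
Bars give the share of all UMIs of a cell class (y axis, %) that fell in the 85 genes, stacked by complex, for each class and library (x axis). Among the 7 classes drawn, mural cells stand highest, at 1.92% to 3.19%, and the bar of the control uninjured library is the lowest in each class that has all 4 libraries.

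Among the fibroblast UMIs in these genes, complexes I and V made up most and complex II the least. In fibroblasts complex I held 0.672% of UMIs in the deletion-labelled infarcted library, 0.693% in the control infarcted library, 0.606% in the deletion-labelled uninjured library and 0.469% in the control uninjured library. Complex II, succinate dehydrogenase, held 0.0365%, 0.0384%, 0.0328% and 0.0298% in that order. Because each UMI marks 1 transcript counted at its 3′ end, these levels are not scaled by transcript length. The gene of each complex with the most UMIs over all kept cells was Cox4i1 (270785, complex IV), Atp5e (185609, the ε subunit of the ATP synthase stalk), Uqcrh (132987, the hinge protein of complex III), Ndufa4 (118918, named for complex I and since assigned to complex IV) and Sdhb (41957, the iron-sulfur subunit of complex II).

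A level filter of at least 50 CPM on average and 40 UMIs over the libraries compared kept 76 to 77 of the 85 genes in fibroblasts. Those that never reached 50 CPM in fibroblasts were Ndufs1, Cox4i2, Cox6a2, Cox6b2, Cox7a1, Cox7b2, Cox8b and Cox8c. Cox7b2 had 0 UMIs and Cox8c 1 UMI over all kept cells. Ndufb1-ps is annotated as a non-coding transcript of a bidirectional promoter, and small subunits with processed copies elsewhere in the genome can share reads with those copies, so their levels are less certain than the others.

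Mural cells had the highest CPM of the 7 classes for 58 of the 83 genes detected in the deletion-labelled infarcted library and for 37 of 82 in the control infarcted library. The numbers were 70 of 83 in the deletion-labelled uninjured library and 51 of 83 in the control uninjured library, and 31 of 82 genes were highest in mural cells in all 4 libraries. No share of all features highest in mural cells is given, so whether these counts are particular to the respiratory genes was not tested. Cox4i1, the common form of complex IV subunit 4, had 1099 CPM in mural cells of the deletion-labelled infarcted library, 931 in the control infarcted library, 959 in the deletion-labelled uninjured library and 579 in the control uninjured library. In fibroblasts it had 743, 711, 568 and 474 CPM in the same order, below mural cells in each library.

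The paired subunit forms differed widely between the classes. NDUFA4L2, a paralogue of NDUFA4 known to be induced by hypoxia-inducible factor, was nearly the sole form in mural cells. Its share of the UMIs of the pair was 89.7% in the deletion-labelled infarcted library, 93.3% in the control infarcted library, 94.5% in the deletion-labelled uninjured library and 98.1% [97.2, 98.9], from 1113 and 21 UMIs in the control uninjured library. In fibroblasts the share was 36.4%, 35.7%, 38.0% and 36.0% in the same order, a narrow range beside that of the classes. Endothelial cells had 5.04%, 8.58%, 2.10% and 2.65%. T and NK cells, a class not known for this form, had 0.834%, 0.208%, 1.01% and 1.06%, from 6, 1, 2 and 2 Ndufa4l2 UMIs. Their median depths were 3816 to 5898 UMIs per cell, against 3840.5 to 10648 in mural cells. How much of these few UMIs came from free RNA was not tested. Ndufa4l2 had 4.05 CPM in T and NK cells of the deletion-labelled uninjured library, but 9.73 in B cells and 17.98 in mononuclear phagocytes. Endothelial cells had 10.99 CPM there. In the deletion-labelled infarcted library these 4 classes had 3.33, 2.98, 2.05 and 17.89 CPM in the same order. The part of free RNA in the endothelial share was not tested.

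By level, Ndufa4l2 had 1433 CPM in mural cells of the deletion-labelled infarcted library, 1339 in the control infarcted library, 2053 in the deletion-labelled uninjured library and 1389 in the control uninjured library. Ndufa4 had 165, 96.9, 119.6 and 26.2 CPM in the same cells, the last from 21 UMIs. Every mural library thus held more Ndufa4l2 than Ndufa4, and in fibroblasts Ndufa4 was the higher form in every library.

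Cox4i2, a form of complex IV subunit 4 known from lung and from cells sensing low oxygen, was also highest in mural cells. It made up 37.3% [35.7, 39.0] of the Cox4i1 and Cox4i2 UMIs of mural cells in the deletion-labelled infarcted library and 34.9% [32.6, 37.2] in the control infarcted library. Without infarction it made up 53.5% [52.2, 54.7] in the deletion-labelled library and 62.6% [59.9, 65.3] in the control library. Both infarcted libraries therefore lay below both uninjured ones. Fibroblasts had 2.86%, 3.42%, 3.13% and 2.04%, and T and NK cells 0% to 0.562%. The pericyte-marked mural cluster (leading genes Abcc9, Kcnj8, Rgs5, and Cox4i2 itself) held 79.0% to 96.5% of mural cells per library.

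**Figure D2:**
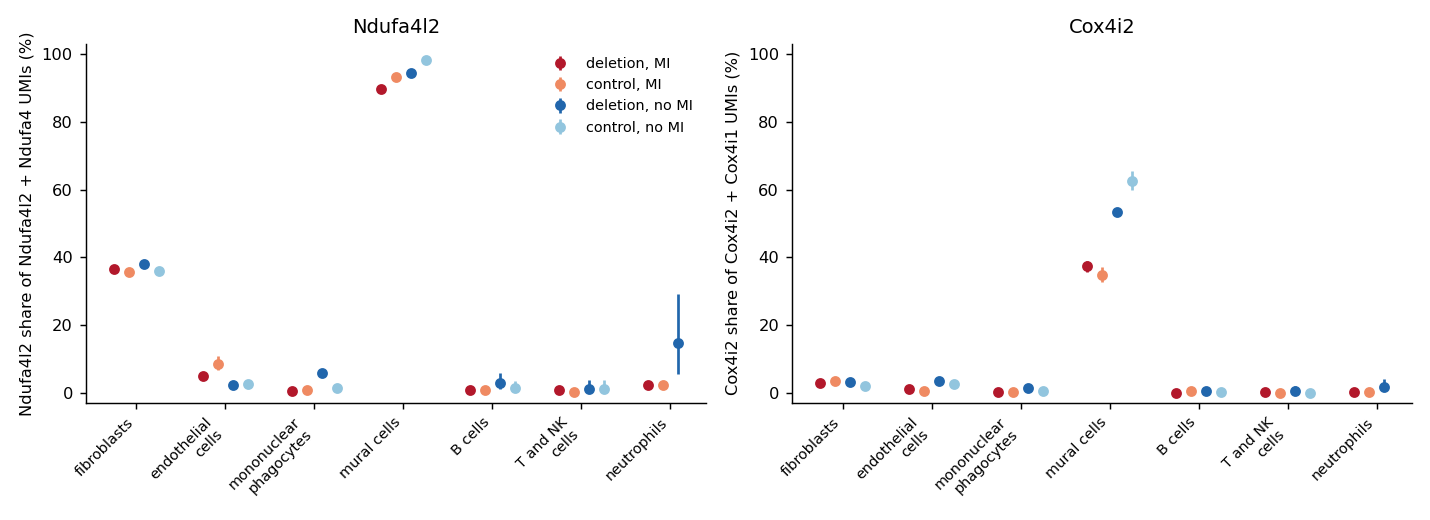
Points give the share of UMIs (y axis, %) of Ndufa4l2 in the sum of Ndufa4l2 and Ndufa4 (left) and of Cox4i2 in the sum of Cox4i2 and Cox4i1 (right), by cell class (x axis) and library; bars are 95% intervals of counting error. Mural cells reach 89.7% to 98.1% for Ndufa4l2 and 34.9% to 62.6% for Cox4i2. Fibroblasts reach 35.7% to 38.0% for Ndufa4l2, and the remaining classes lie below fibroblasts in that panel. The neutrophil point of the deletion-labelled uninjured library there rests on 6 Ndufa4l2 and 35 Ndufa4 UMIs. For Cox4i2 all other classes lie far below mural cells.

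The muscle forms Cox6a2, Cox7a1 and Cox8b were low in these cells. Their shares were high in 26 cells with at least 5% of UMIs in cardiomyocyte markers, a group picked after its values were seen and pooled over libraries: 90.1% for Cox6a2, 47.3% for Cox7a1 and 54.7% for Cox8b. In those 26 cells the 85 genes took up 10.4% [10.2, 10.7] of 54284 UMIs. In endothelial cells the Cox6a2 share was 1.08% in the deletion-labelled infarcted library, 0.203% in the control infarcted library, 6.19% in the deletion-labelled uninjured library and 5.04% in the control uninjured library. The share of endothelial UMIs in 12 cardiomyocyte markers was 0.00896%, 0.00347%, 0.0445% and 0.0395% in the same order, and its part in the Cox6a2 share was not tested.

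Without infarction, most nuclear respiratory genes were higher in the deletion-labelled library than in the control library in each of 6 classes, and outside mural cells mostly by less than 1.5-fold. In fibroblasts 74 of the 76 genes that passed the filter were higher, against 45.6% of all features; 5 reached 1.5-fold (2.13% of features), and 0 were lower by that much (3.08% of features). The median log2 ratio of CPM was 0.35 over these genes and -0.04 over all features. Endothelial cells, which line the vessels, had a median of 0.46, with 75 of 75 genes higher (51.2% of features) and 20 at least 1.5-fold higher (5.31%). Their largest clusters differed, cluster 18 with 58.6% of the deletion-labelled and cluster 15 with 44.4% of the control uninjured library. The share of UMIs in the 85 genes was 1.99% in the deletion-labelled and 1.46% in the control uninjured library within cluster 18, and 1.253% and 1.17% within cluster 15. Mononuclear phagocytes, the monocytes and macrophages, had 0.28, with 72 of 73 higher (43% of features) and 5 at least 1.5-fold higher (2.41%) and 0 lower (3.6%).

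The same comparison in mural cells gave a median of 0.74, with 79 of 79 genes higher (45.3% of features) and 51 at least 1.5-fold higher (9.77%) and 0 lower (10.3%). The smooth muscle cluster of the mural class held 117 cells of the deletion-labelled uninjured library and 7 of the control uninjured library, and the median was 0.51 within the pericyte-marked cluster. B cells had a median of 0.34, with 62 of 70 genes higher (42%) and 5 at least 1.5-fold higher (4.5%). T and NK cells had 0.26, with 57 of 73 higher (45%), 14 at least 1.5-fold higher (6.55%) and 2 at least 1.5-fold lower (11.8%). Of the 69 genes past the filter in all 6 classes, 49 were higher in every one, against 22.4% of features.

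The highest ratios in fibroblasts were those of Atp5mpl, Cox6c, Ndufa1, Atp5md and Ndufa12. Atp5mpl, a small proteolipid of ATP synthase, had 187 CPM in the deletion-labelled uninjured library and 115 CPM in the control uninjured library (log2 ratio 0.70 [0.63, 0.77]). Cox6c, a membrane subunit of complex IV, had 621 and 398 CPM (0.64 [0.60, 0.68]). Ndufa1 and Ndufa12, accessory subunits of complex I, had ratios of 0.64 and 0.59, and Atp5md, a small ATP synthase subunit, 0.62.

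The lowest ratios in fibroblasts were those of Atp5b, Sdha, Uqcrc1, Atp5a1 and Sdhb. Atp5b, the catalytic β subunit of ATP synthase, had 295 CPM in the deletion-labelled uninjured library and 304 CPM in the control uninjured library (-0.04 [-0.09, 0.01]). Sdha, the flavoprotein subunit of complex II, had 106.5 and 109 CPM (-0.03 [-0.11, 0.05]). Uqcrc1, a core subunit of complex III, had a ratio of 0.01, Atp5a1, the α subunit of ATP synthase, 0.02, and Sdhb 0.06. Complex medians in fibroblasts ran from 0.15 for complex II through 0.26 for complex V and 0.35 for complexes I and IV to 0.41 for complex III.

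In endothelial cells Uqcrq, a small subunit of complex III, had 340.1 CPM in the deletion-labelled uninjured library and 182 CPM in the control uninjured library (0.90 [0.84, 0.96]). Atp5e followed at 529.6 and 286 CPM (0.89 [0.84, 0.93]), then Ndufa1 (0.86), Atp5mpl (0.84) and Atp5md (0.80). Sdha was lowest at 98.9 and 94.4 CPM (0.07 [-0.02, 0.15]), after Ndufc2 (0.12), Uqcrc1 (0.13), Atp5a1 (0.13) and Ndufv2 (0.16). In mononuclear phagocytes Uqcrq was again highest, with 289.5 and 175 CPM (0.73 [0.61, 0.85]), followed by Ndufa1 (0.71), Atp5md (0.67), Atp5mpl (0.64) and the complex I subunit Ndufb4 (0.60). There Ndufs6, Ndufv2, Atp5a1, Uqcrc2 and Atp5g1 lay between -0.01 and 0.01.

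**Figure D3:**
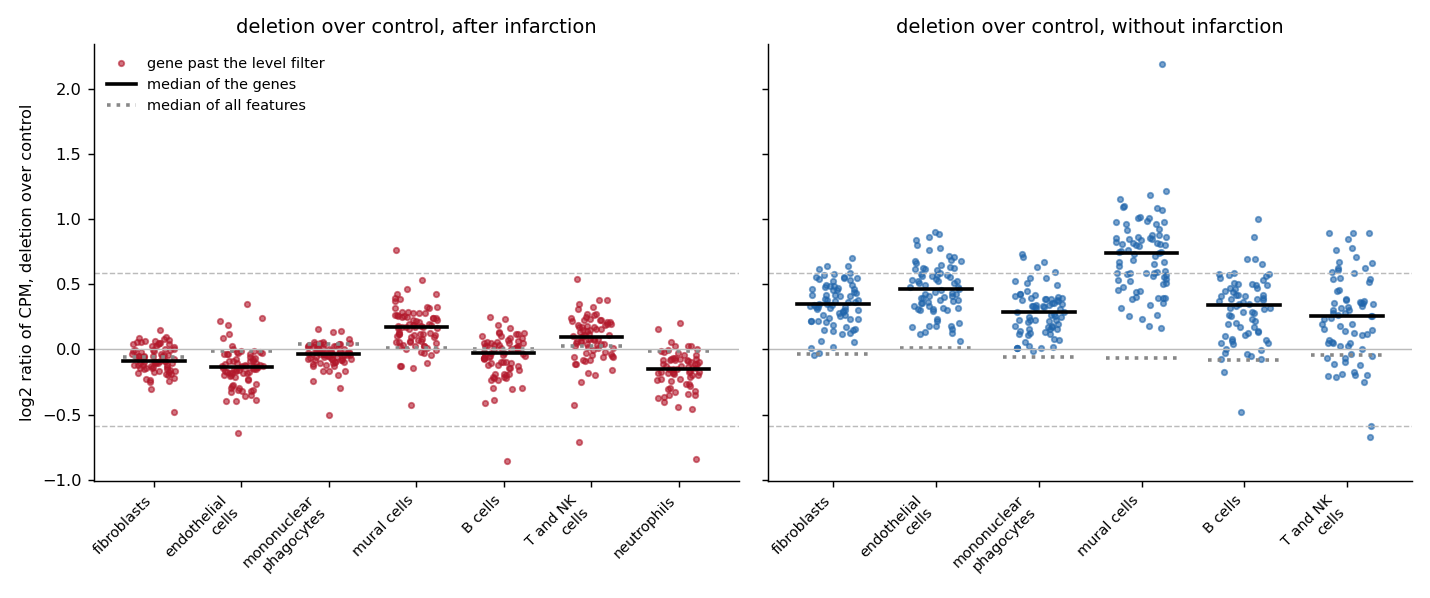
Each point is 1 gene past the level filter, with its log2 ratio of CPM of the deletion-labelled library over the control library (y axis) by cell class (x axis), after infarction (left) and without infarction (right). Solid bars are medians of these genes, dotted bars medians of all features, and dashed lines mark 1.5-fold; without infarction the medians run from 0.26 to 0.74, and after infarction from -0.15 to 0.17.

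Transcript length moved with this difference. The 84 genes with an annotated coding transcript had a median length of 681.5 bases (315 to 3171), against 2265 bases for 21630 features, and 51 of the 84 were below 800 bases. In fibroblasts the median log2 ratio of the deletion-labelled over the control uninjured library was 0.42 for 44 of these genes below 800 bases, 0.35 for 18 from 800 to below 1500 bases and 0.13 for 12 from 1500 to below 3000 bases. The medians of other features without cytosolic ribosome genes were 0.29, 0.20 and -0.01 in the same length ranges, and -0.19 from 3000 bases upward. In endothelial cells the 3 medians were 0.56, 0.45 and 0.19, against 0.43, 0.28 and 0.06 for the other features. In mononuclear phagocytes they were 0.34, 0.29 and 0.12, against 0.19, 0.11 and -0.05.

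In each of these 3 classes and length ranges the median of the respiratory genes lay above that of the other features. These ranges were set after the data were seen, and the part of length in the result was not tested. Depth moved as well: fibroblasts had a median of 13412.5 UMIs per cell in the deletion-labelled uninjured library and 10532 in the control uninjured library. In fibroblasts with 5000 to 20000 UMIs, a range also set after the data were seen, the median was 0.36. Cytosolic ribosome genes, also short, had a fibroblast median of 0.46, with 75 of 77 higher (45.6% of features) and 14 at least 1.5-fold higher (2.13%).

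**Figure D4:**
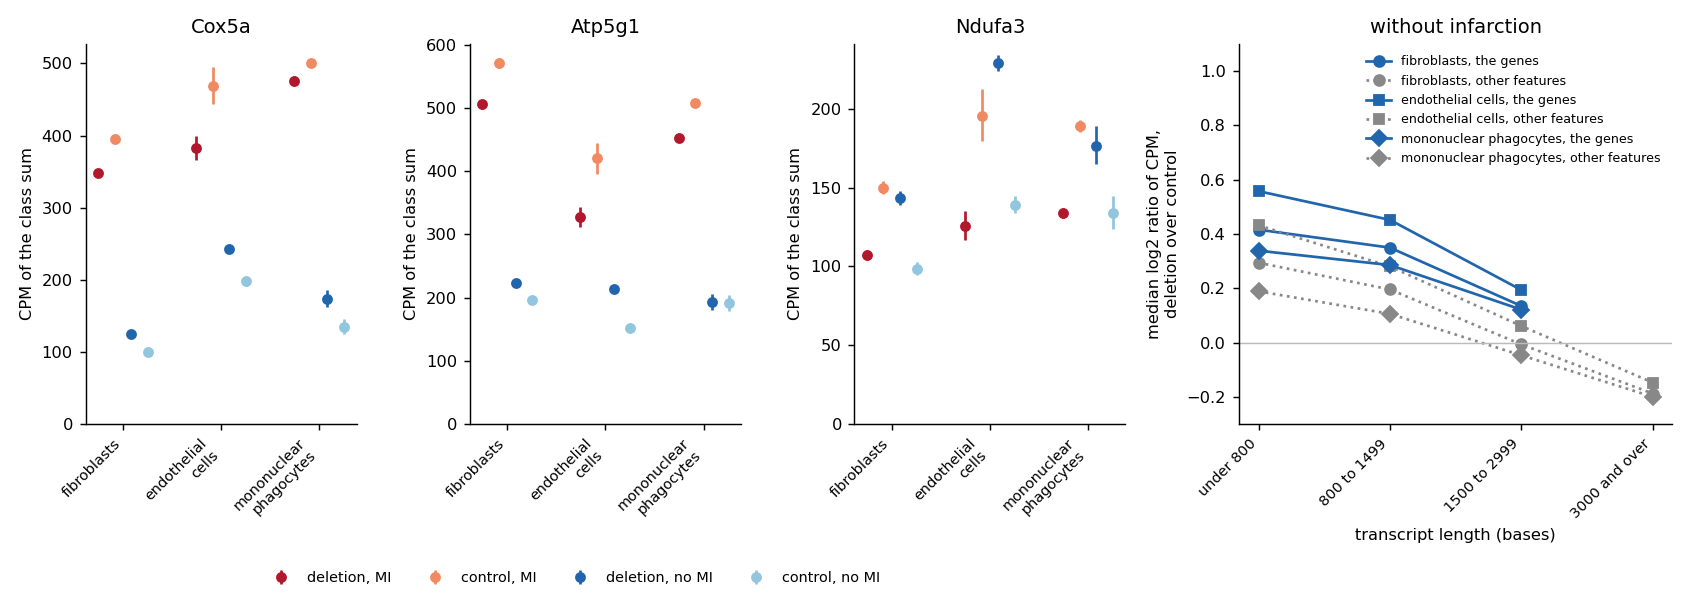
The first 3 panels give CPM of the class sum (y axis) of Cox5a, Atp5g1 and Ndufa3 by class and library with 95% intervals of counting error. The last panel gives the median log2 ratio of the deletion-labelled over the control uninjured library (y axis) by transcript length (x axis), solid for the respiratory genes and dotted for other features without cytosolic ribosome genes; all lines fall with length, from 0.42 to 0.13 for the respiratory genes in fibroblasts.

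After infarction, most nuclear respiratory genes were higher than without it in fibroblasts, endothelial cells and mononuclear phagocytes of control hearts, and in fibroblasts Cox5a and 4 ATP synthase genes had the largest ratios. In control fibroblasts 74 of 77 genes were higher in the infarcted library (50.5% of features), with 42 at least 1.5-fold (30.7% of features) and 0 at least 1.5-fold lower (30.2%), with a median log2 ratio of 0.64 against 0.02 over all features. Control endothelial cells had a median of 0.71, with 49 of 76 genes at least 1.5-fold higher (29.4%) and 0 lower (29.4%). Control mononuclear phagocytes had 0.86, with 73 of 75 genes higher (50.3%), 58 at least 1.5-fold higher (28.9%) and 0 lower (28.6%).

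Ratios were smaller between the deletion-labelled libraries, infarcted over uninjured. In fibroblasts the median was 0.28, with 57 of 77 genes higher (49.8% of features), 11 at least 1.5-fold higher (21.2%) and 0 lower (22.7%). In endothelial cells it was 0.13, with 4 of 76 at least 1.5-fold higher (15.4%) and 2 lower (17.4%). In mononuclear phagocytes it was 0.49, with 70 of 75 genes higher (56.4%), 30 at least 1.5-fold higher (26.8%) and 0 lower (18.7%). The 11 fibroblast genes were among the 42 of control fibroblasts (100% of the 11 and 26.2% of the 42): Atp5a1, Atp5b, Atp5f1, Atp5g1, Atp5g2, Atp5o, Cox5a, Ndufa4, Ndufa4l2, Ndufa8 and Ndufb8. Over all features the same 2 shares were 91.9% and 65.1%, so a nearly full overlap of the smaller group was common to features.

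Cox5a, which sits on the matrix side of complex IV, had 348 CPM in fibroblasts of the deletion-labelled infarcted library, 396 in the control infarcted library, 125 in the deletion-labelled uninjured library and 100.2 in the control uninjured library. Both infarcted libraries lay far above both uninjured ones, with infarction log2 ratios of 1.47 [1.42, 1.53] in deletion-labelled and 1.98 [1.91, 2.05] in control fibroblasts. In mononuclear phagocytes Cox5a had 476, 501, 173 and 134 CPM in the same order, and in endothelial cells 383, 469, 242 and 198 CPM.

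The genes next to Cox5a differed by class. In mononuclear phagocytes the complex I accessory subunit Ndufb6 had 128 CPM in the deletion-labelled infarcted library, 132 in the control infarcted library, 58.8 in the deletion-labelled uninjured library and 45.8 in the control uninjured library (log2 ratios 1.13 in deletion-labelled and 1.52 in control hearts). Atp5g1 stood at 1.23 and 1.41, above Ndufb6 in deletion-labelled and below it in control hearts. Ndufb8 had 1.03 and 1.30, Ndufb2 1.29 in control hearts and Atp5o 0.96 in deletion-labelled hearts. In endothelial cells the highest ratios in deletion-labelled hearts were those of Atp5f1, a stalk subunit (0.75), Cox5a (0.66), Atp5d (0.62), Atp5g1 (0.61) and Atp5a1 (0.57). In control endothelial cells they were those of Atp5g1 (1.47), Atp5g2 (1.37), Atp5f1 (1.34), Cox5a (1.247) and Ndufb5 (1.21).

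In fibroblasts genes for subunit c, which forms the rotating ring of ATP synthase, came next. Atp5g1 had 505.5, 571, 222 and 196 CPM in fibroblasts in that order of libraries (log2 ratios 1.19 for deletion-labelled and 1.55 for control hearts). Atp5g2 had 500.5, 558, 233 and 175 CPM (deletion-labelled 1.102, control 1.67). The third subunit c gene, Atp5g3, made up 18.7% and 19.6% of subunit c UMIs in the deletion-labelled and control infarcted libraries, against 27.6% and 28.1% in the deletion-labelled and control uninjured libraries. Infarcted fibroblasts thus had higher Atp5g1 and Atp5g2 levels and a smaller Atp5g3 part of the sum.

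Atp5b and Atp5o followed. Atp5b had 585 CPM in the deletion-labelled infarcted library, 693 in the control infarcted library, 295 in the deletion-labelled uninjured library and 304 in the control uninjured library (0.99 and 1.19). Atp5o, the stalk protein OSCP, had 323, 358, 183 and 153 CPM (0.82 and 1.23). Complex V had the highest complex median in control fibroblasts, 0.82 with 13 of 17 genes at least 1.5-fold higher (30.7% of features). The other medians were 0.52 for complex I, 0.49 for complex II, 0.68 for complex III and 0.62 for complex IV. The complex V median was 0.42 in deletion-labelled fibroblasts (6 of 17 at least 1.5-fold higher, 21.2% of features). In control mononuclear phagocytes 17 of 17 complex V genes were at least 1.5-fold higher (28.9% of features, median 0.90), and in control endothelial cells 15 of 17 (29.4%, median 0.86).

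In fibroblasts 20 of 77 genes were lower in the infarcted library of deletion-labelled hearts and 3 of 77 in that of control hearts. Ndufa1 was the lowest in deletion-labelled hearts, with 106 CPM in the infarcted and 154 in the uninjured library (-0.54 [-0.60, -0.47]), and had 102.5 CPM in the infarcted and 98.4 in the uninjured library of control hearts (0.06 [-0.02, 0.14]). Ndufa3 stood at -0.42 in deletion-labelled and 0.61 in control hearts, and Ndufa5 at -0.39 and 0.02. The 3 genes lower in both genotypes were Ndufv3, Ndufa6 and Sdha. Ndufv3, an accessory subunit of complex I, had 131 CPM in the deletion-labelled infarcted library, 118 in the control infarcted library, 188 in the deletion-labelled uninjured library and 152 in the control uninjured library (-0.52 [-0.58, -0.46] and -0.36 [-0.43, -0.29]). Ndufa6 had 137, 130.4, 190.4 and 147 CPM (-0.47 and -0.17). Sdha had 93.5, 87.5, 106.5 and 109 CPM (-0.19 and -0.31).

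The lowest infarction ratios in the other large classes included some of the same genes. In mononuclear phagocytes Cox7a2l, a protein that joins complexes III and IV into supercomplexes, had 207, 203, 263 and 239 CPM (-0.34 and -0.24), and in endothelial cells Ndufa4 had 337, 265, 512 and 346 CPM (-0.61 and -0.39). Other low values in mononuclear phagocytes were those of Ndufa3 (-0.40), Ndufa5 (-0.40), Cox7c (-0.17) and Ndufa2 (-0.03) in deletion-labelled hearts. In control hearts they were those of Ndufa5 (-0.01), Sdha (0.06), Ndufa6 (0.10) and Cox7c (0.18). In endothelial cells they were those of Ndufa3 (-0.86), Ndufa1 (-0.51), Uqcr11 (-0.48) and Ndufc1 (-0.44) in deletion-labelled hearts. In control endothelial cells they were those of Ndufa6 (-0.22), Sdha (-0.20), Ndufa7 (0.10) and Atp5j (0.26).

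In fibroblasts, endothelial cells, mononuclear phagocytes and neutrophils the infarcted and uninjured cells lay mostly in different clusters, while mural cells, B cells and T and NK cells had 1 largest cluster in all 4 libraries. Fibroblasts of the infarcted libraries lay mostly in cluster 3 (leading genes Timp1, Cthrc1, Tnc, Postn), with 69.2% of the deletion-labelled and 98.5% of the control library, and those of the uninjured libraries in cluster 13 (Smoc2, Crispld2, Dpep1), with 74.9% and 73.4%. The 85 genes took up 2.06% and 2.07% of UMIs in cluster 3 of the deletion-labelled and control infarcted libraries. In cluster 13 they took up 1.42% in the deletion-labelled infarcted library, 1.63% in the deletion-labelled uninjured library and 1.245% in the control uninjured library. Within cluster 13 the median log2 ratio of the deletion-labelled infarcted over the deletion-labelled uninjured library turned to -0.14. A rise of 1.5-fold was seen there in 0 of the respiratory genes, and a fall of that size in 13. No share of all features is given within this cluster, so whether the turn is particular to these genes was not tested. In fibroblasts with 5000 to 20000 UMIs the median of that ratio was 0.078, with 3 at least 1.5-fold higher (the range set after the data were seen). The control infarcted library had too few cells in cluster 13 for the same ratio.

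Mononuclear phagocytes lay in cluster 4 (Chil3, Ly6c2, Ccr2; 45.9% of the deletion-labelled and 43.0% of the control infarcted library) and in cluster 24 (Lyve1, Cd163, Folr2; 86.2% and 95.2% of the uninjured libraries). Endothelial cells lay in cluster 5 after infarction (Plvap, Vwf, Apln; 60.97% and 90.8%) and in clusters 18 (Aqp1, Aplnr, Fabp4; 58.6% of the deletion-labelled uninjured library) and 15 (Timp4, Btnl9, Kdr; 44.4% of the control uninjured library). Depth differed too, with median UMIs per fibroblast of 19931, 31878, 13412.5 and 10532 in the deletion-labelled infarcted, control infarcted, deletion-labelled uninjured and control uninjured libraries. In mural cells of control hearts 27 of 79 genes were at least 1.5-fold higher after infarction (27.4% of features) and 1, Cox4i2, at least 1.5-fold lower (33%). In deletion-labelled hearts 3 of 79 mural genes reached 1.5-fold (Atp5f1, Atp5g1 and Cox5a, 20.2% of features) and 6 were lower by that much (Cox4i2, Ndufa5, Ndufa3, Atp5mpl, Cox7c and Atp5md, 21.5%). The mural median of that ratio was -0.12, but 0.015 within the pericyte-marked cluster.

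Lymphocytes had smaller infarction ratios in both genotypes than fibroblasts of the same genotype. In control hearts the infarction median was 0.40 in B cells (15 of 72 at least 1.5-fold higher, 8.26% of features) and 0.28 in T and NK cells (12 of 73, 7.83%). In deletion-labelled hearts it was 0.04 in B cells (4 of 73, 7.38%), 0.15 in T and NK cells (7 of 75, 7.5%) and 0.56 in neutrophils (28 of 62, 25.7%). Without doublet removal the neutrophil median was 0.33, with 16 genes at least 1.5-fold higher. Of the deletion-labelled neutrophils, 76.9% lay in cluster 6 (Il1r2, Il1b, S100a8) after infarction and 96.3% in cluster 7 (Retnlg, Asprv1, S100a9) without it. Within cluster 7 the 85 genes took up 1.05% of UMIs in the deletion-labelled infarcted library and 1.1045% in the deletion-labelled uninjured library. The genes that were higher in all classes compared numbered 48 of 72 in control hearts (32.8% of features) and 18 of 62 in deletion-labelled hearts (22.9%).

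**Figure D5:**
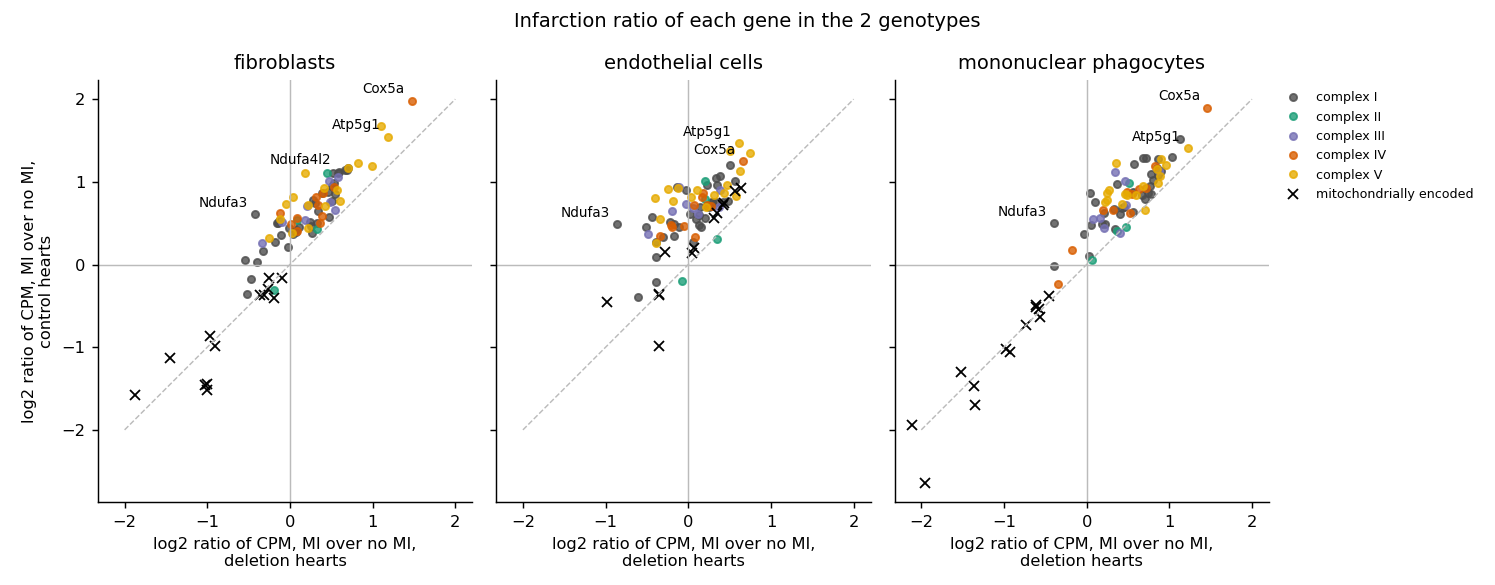
Each point is 1 gene, with its log2 ratio of CPM of infarcted over uninjured cells in deletion-labelled hearts (x axis) and in control hearts (y axis), for 3 classes and coloured by complex; crosses are mitochondrially encoded genes and the dashed line marks equal ratios. Cox5a stands far out in fibroblasts at 1.47 and 1.98, most nuclear genes lie above the dashed line, and in fibroblasts and mononuclear phagocytes the mitochondrially encoded genes lie below 0 on both axes.

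The mitochondrially encoded subunits of the same complexes went in the opposite direction in fibroblasts and mononuclear phagocytes. In fibroblasts their median infarction ratio was -0.90 in deletion-labelled and -0.86 in control hearts. At least 1.5-fold lower were 7 of 13 in each, against 22.7% and 30.2% of features. In mononuclear phagocytes the median was -0.93 (10 of 13 lower, 18.7% of features) and -1.02 (9 of 13, 28.6%). The genes differed: mt-Atp8 of complex V had 166 CPM in fibroblasts of the deletion-labelled infarcted library, 183 in the control infarcted library, 607 in the deletion-labelled uninjured library and 548 in the control uninjured library, while mt-Atp6 of the same complex had 7051, 5645, 7564 and 6345. In endothelial cells the medians were 0.07 in deletion-labelled and 0.20 in control hearts. In deletion-labelled neutrophils every mitochondrially encoded gene with a ratio was lower after infarction, from -0.14 for mt-Cytb to -0.91 for mt-Atp8. In control mural cells all but mt-Cytb (0.07) were lower, down to -1.32 for mt-Nd6. In deletion-labelled mural cells all were lower, and the nuclear median was below 0 as well. B cells and T and NK cells had mixed signs.

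Other gene lists of energy metabolism set the size of these ratios in fibroblasts. Of all fibroblast features, 21.2% were at least 1.5-fold higher and 22.7% lower in deletion-labelled hearts. In control hearts these shares were 30.7% and 30.2%. Glycolytic genes had a median infarction ratio of 1.82 in deletion-labelled hearts (9 of 10 past the filter at least 1.5-fold higher and 1 lower) and 2.23 in control hearts (10 of 11, and 1 lower). The nuclear genes of the mitochondrial ribosome had 0.59 (24 of 46) and 0.98 (41 of 46), and Cyc1, Cycs and Ndufab1, subunits and an electron carrier outside the symbol rule, had 0.82 and 1.38, with 3 of 3 higher in each. Genes of the tricarboxylic acid cycle had 0.17 (2 of 10) and 0.13 (3 of 11), and those of fatty acid oxidation -0.03 (0 of 8, and 1 lower) and -0.17 (1 of 8, and 1 lower). Assembly factors had 0.02 (0 of 10) and 0.33 (3 of 10), cytosolic ribosome genes 0.64 (44 of 77) and 1.16 (74 of 78), and of the regulators only Hif1a and Yy1 passed the filter, at 1.36 and 0.17 in deletion-labelled and 1.47 and -0.05 in control hearts. The respiratory genes therefore lay below glycolysis and the mitochondrial ribosome and above the tricarboxylic acid cycle in both genotypes.

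In fibroblasts longer features had lower infarction ratios, and longer respiratory genes did not. In deletion-labelled fibroblasts the respiratory genes had medians of 0.19 below 800 bases, 0.43 from 800 to below 1500 bases and 0.48 from 1500 to below 3000 bases, against 0.29, 0.28 and 0.05 for other features without cytosolic ribosome genes. In control fibroblasts the respiratory genes had medians of 0.58 below 800 bases, 0.77 from 800 to below 1500 bases and 0.76 from 1500 to below 3000 bases. Those other features had 0.70, 0.66 and 0.14 there and -0.53 from 3000 bases upward. The part of length in the infarction result was not tested.

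Between the infarcted libraries the genotype difference was small. In fibroblasts the median log2 ratio of the deletion-labelled over the control infarcted library was -0.09, with 19 of 77 genes higher (40.3% of features), 0 at least 1.5-fold higher (4.85%) and 0 at least 1.5-fold lower (1.39%). Within cluster 3, it was -0.02, and in cells with 5000 to 20000 UMIs it was -0.23. Endothelial cells had -0.14, with 8 of 76 higher (48.5%), 0 at least 1.5-fold higher (7.77%) and 1, Ndufa3, at least 1.5-fold lower (2.13%). Mononuclear phagocytes had -0.03, with 23 of 76 higher (60.8%) and 0 past 1.5-fold in either direction (1.32% higher and 0.418% lower).

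The remaining classes had medians of 0.17 in mural cells (1 of 79, Ndufa4, at least 1.5-fold higher, 4.22%, and 0 lower, 2.48%, with Ndufa4 at 0.76 and, without doublet removal, at -0.11), -0.03 in B cells, 0.10 in T and NK cells and -0.15 in neutrophils. Ndufa3 was the 1 gene at least 1.5-fold lower in B cells (of 74, 1.32% of features), in T and NK cells (of 75, 1.28%) and in neutrophils (of 68, 0.878%). In fibroblasts 1 of 17 complex V genes was higher (40.3% of features, median -0.15) and in endothelial cells 0 of 17 (48.5%, median -0.21). Of the 67 genes past the filter in all 7 classes, Cox7a2 was higher in each and Atp5f1, Ndufa3 and Atp5md were lower in each, against 2.93% of features higher and 6.1% lower in all classes.

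After Ndufa3, the lowest ratios between the infarcted libraries in fibroblasts were those of 4 ATP synthase genes, Atp5md (-0.30), Atp5g3 (-0.25), Atp5b (-0.24) and Atp5k (-0.23), and the highest those of Ndufv3 (0.15), Sdha (0.10), Ndufa13 (0.09), Ndufa7 (0.08) and Ndufa6 (0.07). In endothelial cells the low ones were Atp5md (-0.40), Ndufc1 (-0.40), Atp5g3 (-0.39) and Atp5g1 (-0.36), and the high ones Ndufa4 (0.35), Ndufa6 (0.24), Sdhb (0.21), Sdha (0.19) and Cox7a2l (0.12). In mononuclear phagocytes the low ones were Atp5k (-0.30), Ndufb1-ps (-0.24), Atp5md (-0.20) and Atp5g1 (-0.17). The high ones there were Cox7a2 (0.15), Ndufa6 (0.14), Sdha (0.13), Ndufs8 (0.08) and Cox6a1 (0.06).

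Ndufa3 was the lowest gene of this comparison in fibroblasts, endothelial cells and mononuclear phagocytes. In fibroblasts it had 107 CPM in the deletion-labelled infarcted library, 150.0 in the control infarcted library, 143 in the deletion-labelled uninjured library and 98.6 in the control uninjured library. In endothelial cells it had 126, 196, 229 and 139 CPM, and in mononuclear phagocytes 134, 189, 177 and 134 CPM. The deletion-labelled infarcted library was thus below the control infarcted library in each, and the deletion-labelled uninjured library above the control uninjured library.

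The log2 ratio of Ndufa3 between the infarcted libraries was -0.48 [-0.55, -0.42] in fibroblasts, -0.64 [-0.80, -0.47] in endothelial cells and -0.50 [-0.54, -0.45] in mononuclear phagocytes. It was -0.42 in mural cells, -0.85 in B cells, -0.71 in T and NK cells and -0.84 in neutrophils, so it was lower in all 7 classes. Rpl29, a protein of the cytosolic ribosome, was the lowest of its list in fibroblasts (-0.68), endothelial cells (-0.89), mononuclear phagocytes (-0.58) and mural cells (-0.86) of the same comparison.

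The genotype ratio after infarction was thus lower than the genotype ratio without it for most of these genes in each class compared. The difference of the ratios, infarcted minus uninjured, had a median of -0.45 in fibroblasts, with 75 of 76 genes below 0 (51.2% of features). It was -0.59 in endothelial cells (73 of 75, 51.4%), -0.31 in mononuclear phagocytes (69 of 73, 41.2%), -0.58 in mural cells (78 of 79, 48.6%), -0.39 in B cells (64 of 70, 44.7%) and -0.13 in T and NK cells (47 of 73, 43.4%). Other short features moved in the same direction. Below 800 bases in fibroblasts, the genotype medians after and without infarction were -0.05 and 0.42 for the respiratory genes. Other features of that length without cytosolic ribosome genes had -0.08 and 0.29. In endothelial cells these medians were -0.13 and 0.56, against -0.14 and 0.43. The part of length was not tested. With 1 library per group the difference of the ratios was not tested, and a shift of the control uninjured library alone cannot be told apart from a change with genotype.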

How the data were processed

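Single-cell RNA was measured in 4 mouse heart libraries, 1 per group. The deposited matrices hold whole-number UMI counts per gene and cell, made by the authors with Cell Ranger 5.0.1 on the mm10 build, per the submitters' processing notes. The members and gene lists were chosen with earlier results of these data known. Barcodes below 500 UMIs or 200 genes, or above 20% mitochondrial UMIs, were dropped, and a simulated-doublet score removed 640 to 999 cells per library. Cells were clustered with scanpy 1.11.5 (2000 variable genes, 30 components, 20 neighbours, resolution 1.0), leaving out the described genes and mitochondrially encoded genes. Counts were summed by class and library, since cells are not replicates, and set to CPM of the class sum; classes needed 50 cells in both libraries. Genes needed a mean of 50 CPM and 40 UMIs over both sums. Ratios carry exact Clopper-Pearson intervals and levels exact Poisson intervals (scipy 1.17.1), at 95%. With 1 library per group no test was made and 1.5-fold served as a rule of size. Only the ratios and their intervals were tested on simulated counts, modelled on fibroblasts of the uninjured libraries. Named singly were the 5 highest and 5 lowest genes per comparison in fibroblasts, endothelial cells and mononuclear phagocytes, the paired forms, the top gene per complex and a few of the highest and lowest genes of other lists; promoters were shown for their motif content, and genes named in other classes or in overlaps were named after their values were seen. Alternatives changed the scaling, filters, doublet removal, averaging and cluster choice. Cells in clusters with no name were not compared.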

Additional observations from a re-analysis of the deposited data

Results flagged for a closer look

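In 4 classes the summed UMIs of the respiratory genes lay lower in the deletion-labelled than in the control library after infarction and higher without infarction. The log2 ratios were -0.074 after infarction and 0.37 without it in fibroblasts, -0.14 and 0.50 in endothelial cells, -0.047 and 0.29 in mononuclear phagocytes, and -0.036 and 0.29 in B cells. Ndufa3 did the same in endothelial cells, at -0.64 after infarction and 0.72 without it. In mural cells the infarction ratio of the summed genes was -0.165 in deletion-labelled and 0.40 in control hearts, and that of Atp5mpl -0.62 and 0.72. They were marked because the 2 ratios of each pair point in opposite directions. With 1 library per group these differences were not tested.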

How the results depend on the processing

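No paired analysis was possible because a group is a single library. Of the medians recomputed under the alternatives, 218 stayed within the 95% interval of the median over genes and 27 moved out of it, and the cause was not tested. With median-of-ratios scaling, the median log2 ratio of the deletion-labelled over the control infarcted library was -0.030 in fibroblasts and -0.078 in mononuclear phagocytes; without infarction it was 0.34 in mononuclear phagocytes and 0.42 in B cells. The infarction ratio in deletion-labelled hearts was then 0.36 in mononuclear phagocytes and 0.15 in B cells, and in control hearts 0.58 in B cells and 0.44 in T and NK cells. With the mean of CPM per cell, the infarcted genotype median was -0.15 in fibroblasts, -0.027 in endothelial cells and 0.20 in mural cells, and the infarction median of control mural cells 0.55. Without doublet removal, the infarcted genotype median was -0.11 in endothelial cells and 0.031 in T and NK cells, the infarction median of deletion-labelled neutrophils 0.33, and mural Ndufa4 reversed to -0.11 between the infarcted libraries. At most 10% mitochondrial UMIs gave 0.77 for infarction in control endothelial cells. Cells with 5000 to 20000 UMIs, chosen after seeing the data, gave -0.23 for fibroblasts between the infarcted libraries. For infarction in deletion-labelled hearts they gave 0.078 in fibroblasts, 0.39 in mononuclear phagocytes and -0.33 in mural cells, and in control mural cells 0.21. Within the largest shared cluster, the infarcted genotype median was -0.016 in fibroblasts, 0.093 in mural cells and -0.090 in neutrophils, and the uninjured one 0.51 in mural cells. There the infarction median of deletion-labelled hearts was -0.14 in fibroblasts and 0.015 in mural cells, with Atp5f1 (-0.056), Ndufa4 (-0.014), Ndufa4l2 (-0.061) and Ndufb8 (-0.082) reversed in fibroblasts. Counts of genes past 1.5-fold stayed within 1.5 times for 433 results, were larger for 79 and smaller for 30. Among them, the 5 fibroblast genes between the uninjured libraries became 10 with median-of-ratios scaling and 8 in the largest shared cluster, and 45 under a lower limit of size. The 11 fibroblast genes of infarction in deletion-labelled hearts became 5 with the mean per cell, 3 in cells with 5000 to 20000 UMIs and 0 in the shared cluster, and the 51 mural genes between the uninjured libraries became 30 in the shared cluster.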
